A study of Mus musculus with 12 samples.

Results

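Adrenergic receptors are the cell-surface receptors for noradrenaline and adrenaline. Counts of 6 receptor genes, Adra1a, Adra1b, Adra1d, Adra2a, Adra2c and Adrb1, were taken by gene name from the 54429 entries of the count table. The genes were given as a list of names. They are described in 12 total-RNA libraries of C57BL/6 mouse brain punches, 3 in each of 4 groups. The groups were BLA and VTA, the usual abbreviations of basolateral amygdala and ventral tegmental area, each from mice labelled early social isolated or group housed. The design text gives male mice for the BLA and female mice for the VTA, so region and sex cannot be told apart in any comparison between them. The group-housed mice are the controls within a region. The labels carry no genotype, age or length of isolation, and they do not say whether a library is 1 animal. The spread behind each p-value is thus that between libraries of the same group, pooled over the groups in a fit, and may be technical.

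Noradrenaline reaches the forebrain mainly from neurons of the locus coeruleus in the brainstem. Its alpha-1 receptors couple to Gq and phospholipase C, its alpha-2 receptors couple to Gi/o and lower cAMP, and its beta receptors couple to Gs and raise cAMP. Alpha-2 receptors also sit on noradrenergic terminals, where they limit release. In the amygdala, noradrenergic signalling is known for its part in emotional memory and arousal.

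The libraries held 28278708 to 69276892 counts. Levels are given as CPM, read counts scaled to the library size, with TMM scaling, a factor per library that aligns the bulk of the genes, set over the 12 libraries. In 3 BLA libraries (isolated 3, group-housed 1 and 2), loci that collect ribosomal RNA reads took 18.6% to 41.8% of the counts, and in the remaining 9 libraries at most 1.57%. The dopamine transporter Slc6a3, which defines dopamine neurons, ran from 231 to 520 CPM in the VTA libraries and from 0.424 to 1.09 CPM in the BLA libraries. Markers of cortical and basolateral glutamatergic neurons, a list of 9, summed to 808 to 1690 CPM in the BLA and 89.3 to 497 CPM in the VTA. Isolated VTA libraries 1 and 3 stand apart in the sum of choroid plexus markers, a list of 8, with 269.7 and 3434 CPM. The sum was 37.1 to 58.6 CPM in the other 4 VTA libraries. In isolated library 1 it rested mostly on Ttr, at 204.6 CPM. There Kl, Clic6 and Prlr lay within the group-housed range, and Folr1, Kcnj13, Aqp1 and Otx2 lay above it. In isolated library 3 all 8 markers lay above that range. Housing differences in the VTA are given with and without isolated VTA libraries 1 and 3.

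Adra1a encodes the alpha-1A receptor and lies on chromosome 14 (mm10, 66635251 to 66771168, plus strand, up to 4 exons in a transcript). Its BLA levels were 21.8, 19.6 and 22.9 CPM for isolated libraries 1 to 3 and 20.6, 21.9 and 21.4 CPM for the group-housed ones. Its VTA levels were 14.1, 14.01 and 16.4 CPM in the isolated libraries and 16.2, 13.5 and 15.5 CPM in the group-housed ones. Each BLA library was above each VTA library, and the housing groups overlapped within both regions.

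Adra1b encodes the alpha-1B receptor and lies on chromosome 11 (mm10, 43774606 to 43901210, minus strand, up to 5 exons). Its BLA levels were 6.18, 6.69 and 8.23 CPM in the isolated libraries and 6.63, 4.90 and 7.89 CPM in the group-housed ones. Its VTA levels were 11.2, 13.96 and 8.19 CPM in the isolated libraries and 8.503, 9.85 and 13.2 CPM in the group-housed ones. It was the member whose levels were mostly higher in the VTA. The regions met at one point, where isolated VTA library 3 fell just under isolated BLA library 3.

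Adra1d encodes the alpha-1D receptor and lies on chromosome 2 (mm10, 131545850 to 131562283, minus strand, 2 exons). It was at 2.496, 3.603 and 3.25 CPM in isolated BLA libraries and at 2.73, 2.12 and 3.88 CPM in group-housed ones. It was at 0.858, 0.560 and 1.02 CPM in isolated VTA libraries and at 0.458, 0.493 and 0.880 CPM in group-housed ones. It was the member with the fewest reads, 29 to 74 counts in a VTA library and 35 to 221 in a BLA library. The antisense transcript Gm14285 overlaps its exons and collected 69 counts over the 12 libraries.

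Adra2a encodes the alpha-2A receptor, the main alpha-2 autoreceptor, and lies on chromosome 19 (mm10, 54044151 to 54048982, plus strand). It was at 8.98, 11.1 and 15.7 CPM in isolated BLA libraries and at 11.98, 11.3 and 13.8 CPM in group-housed ones. It was at 14.2, 13.6 and 10.9 CPM in isolated VTA libraries and at 11.2, 13.6 and 11.97 CPM in group-housed ones. All 4 groups overlapped, and the isolated BLA libraries spread most widely.

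Adra2c encodes the alpha-2C receptor, which is abundant in striatal neurons, and is a gene of 1 exon on chromosome 5 (mm10, 35278319 to 35281763, plus strand). It was at 59.3, 32.6 and 25.7 CPM in isolated BLA libraries and at 42.4, 27.2 and 27.8 CPM in group-housed ones. It was at 12.95, 8.97 and 20.8 CPM in isolated VTA libraries and at 6.74, 6.76 and 8.11 CPM in group-housed ones. Each BLA library was above each VTA library. Within the VTA, each isolated library was above each group-housed one.

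Adrb1 encodes the beta-1 receptor and lies on chromosome 19 (mm10, 56722199 to 56733113, plus strand), 2.67 Mb from Adra2a. It was at 15.2, 16.03 and 16.0 CPM in isolated BLA libraries and at 16.01, 20.3 and 16.4 CPM in group-housed ones. It was at 6.45, 4.97 and 8.54 CPM in isolated VTA libraries and at 3.67, 3.97 and 4.70 CPM in group-housed ones. As for Adra2c, the regions did not overlap, and the isolated VTA libraries lay above the group-housed ones.

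**Figure D1:**
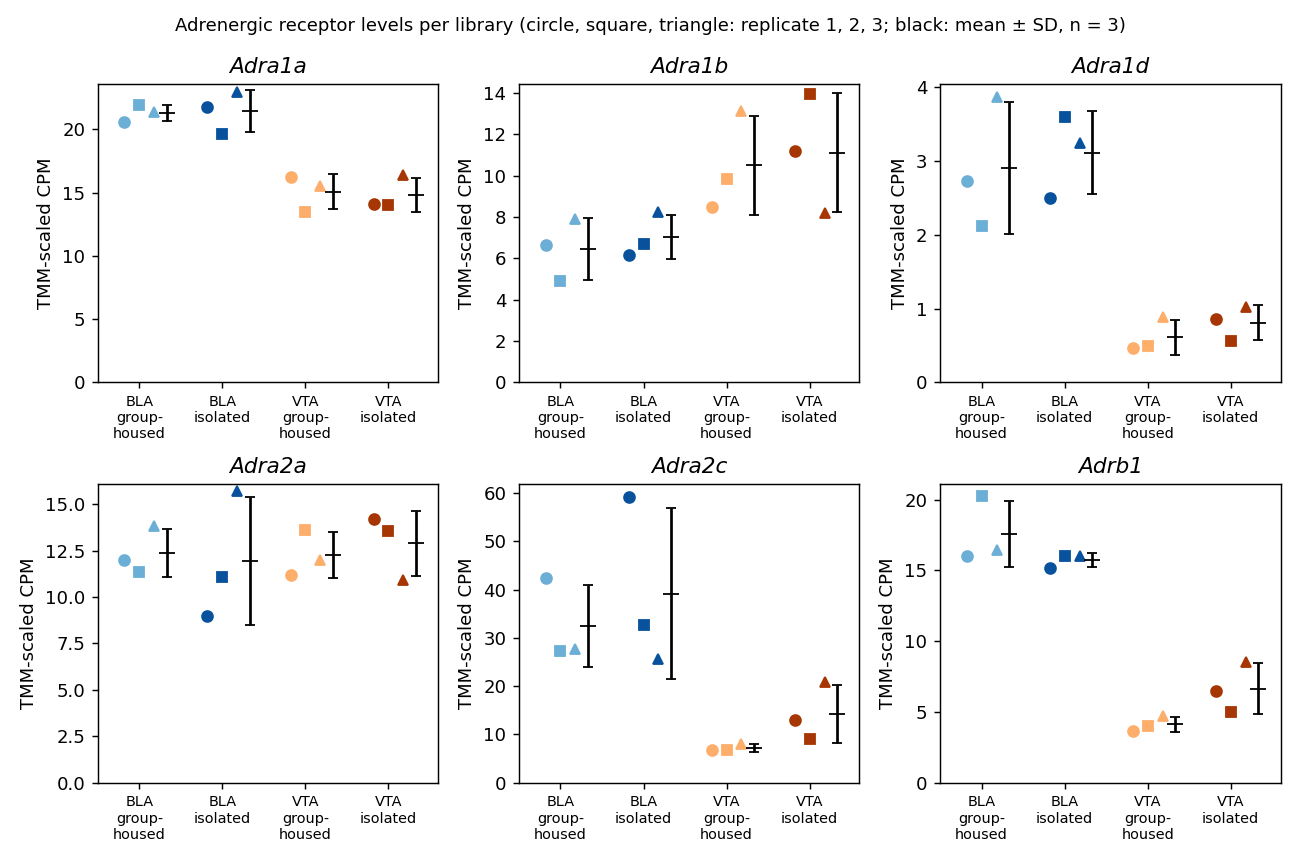
Level of each adrenergic receptor gene in each of the 12 libraries, as TMM-scaled CPM on a linear axis from 0 in 1 panel per gene, by region and housing, with 3 points per group (circle, square and triangle for libraries 1, 2 and 3) and the mean ± SD in black. Adra1a, Adra1d, Adra2c and Adrb1 stand higher in all BLA libraries than in all VTA libraries, Adra1b stands mostly higher in the VTA, and Adra2a overlaps.

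The promoter windows of Adrb1 and Adra1b, which differed between the regions in opposite directions, are the only ones among the members that could be shown. Those of Adra2a and Adra2c overlap an annotated exon, and no window was available for Adra1a and Adra1d. RefSeq sequence (GRCm38.p6) was taken for the 250 bases upstream of a start and written 5′ to 3′ along the gene, with matches on either strand to TATAAA, the E-box CACGTG, the core TGACG of the cAMP response element or CCAAT in capitals. Adra1b has a start at the 5′ end of the gene and another inside it. Of all 32851 windows of this length, 12.4% held TATAAA, 6.02% CACGTG, 17.8% TGACG and 33.9% CCAAT; the motifs do not overlap one another in the windows shown.
Adrb1, chr19:56721867-56722116, plus strand: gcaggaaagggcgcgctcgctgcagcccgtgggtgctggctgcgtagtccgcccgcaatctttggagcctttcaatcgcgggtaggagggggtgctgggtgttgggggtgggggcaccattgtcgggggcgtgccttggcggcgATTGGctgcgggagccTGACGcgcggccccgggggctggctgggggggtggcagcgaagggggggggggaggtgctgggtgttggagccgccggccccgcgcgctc
Adra1b 5′ start, chr11:43901238-43901487, minus strand: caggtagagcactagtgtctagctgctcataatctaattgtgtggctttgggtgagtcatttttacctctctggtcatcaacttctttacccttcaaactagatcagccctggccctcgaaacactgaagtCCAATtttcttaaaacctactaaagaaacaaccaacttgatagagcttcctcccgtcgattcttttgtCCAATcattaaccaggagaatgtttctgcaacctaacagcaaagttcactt
Adra1b inner start, chr11:43836490-43836739, minus strand: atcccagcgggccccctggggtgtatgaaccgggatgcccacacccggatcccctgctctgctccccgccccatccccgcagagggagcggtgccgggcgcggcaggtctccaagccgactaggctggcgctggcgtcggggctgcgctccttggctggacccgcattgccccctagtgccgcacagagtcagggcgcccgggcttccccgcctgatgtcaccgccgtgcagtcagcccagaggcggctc
The Adrb1 window was 74.0% G and C with 24 CpG pairs, against medians of 52.4% and 6 over all windows. It held 1 TGACG, 90 bases upstream of the start, and 1 CCAAT on the other strand, 106 bases upstream. The inner Adra1b window was 72.8% G and C with 22 CpG pairs and held none of the 4 motifs. The window at the 5′ start of Adra1b was 41.6% G and C with 3 CpG pairs and held 2 CCAAT. The counts do not separate the starts of Adra1b, and a match is only a match of letters.

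Between genes, levels were compared as CPM per kb of summed exons (GENCODE vM21, mm10). In group-housed BLA libraries Adra2c came first with 9.42 ± 2.49 CPM per kb (SD, n = 3). Adrb1 followed with 5.20 ± 0.70, Adra2a with 2.56 ± 0.27, Adra1a with 2.44 ± 0.08, Adra1b with 1.91 ± 0.44 and Adra1d with 1.53 ± 0.47 CPM per kb. On this length Adra2a and Adra1a could not be ordered beyond the spread of their libraries, nor could Adra1b and Adra1d. In isolated BLA libraries the order of the means by summed exons was the same. With the longest transcript as the length, Adra1a had 4.97 ± 0.15 CPM per kb in group-housed BLA libraries. It then lay above Adra2a, at 2.56 ± 0.27, with no overlap.

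In group-housed VTA libraries Adra1b had the highest mean, 3.11 ± 0.71 CPM per kb (SD, n = 3), followed by Adra2a with 2.54 ± 0.26 and Adra2c with 2.09 ± 0.23 CPM per kb. Adra1a followed with 1.73 ± 0.16, Adrb1 with 1.22 ± 0.16 and Adra1d with 0.32 ± 0.12 CPM per kb. Adra1b and Adra2a overlapped between libraries, as did Adra2a and Adra2c. In isolated VTA libraries Adra2c had the highest mean, 4.13 ± 1.74 CPM per kb, overlapping Adra1b at 3.29 ± 0.85 CPM per kb. The place of Adra1a depends on the length used, 8.73 kb of summed exons or 4.28 kb for the longest transcript. With the latter it had 3.52 ± 0.33 CPM per longest-transcript kb in group-housed VTA libraries, the highest mean there, above Adra1b at 3.15 ± 0.72.

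The summed level of the 6 genes was 21.3 to 29.2 CPM per kb in the BLA libraries and 9.97 to 15.7 in the VTA libraries. Adra2c made up 33.6% to 59.0% of that sum in the BLA and 18.4% to 38.5% in the VTA. Adra1b made up 6.27% to 10.95% in the BLA and 15.5% to 31.99% in the VTA, with no overlap. The 3 alpha-1 genes together took 19.3% to 30.5% of the sum in the BLA and 30.9% to 49.6% in the VTA. By longest transcript these shares were 25.5% to 37.2% and 37.9% to 55.6%. The ratio of Adra2c to Adra2a ran from 2.29 to 9.25 in the BLA and from 0.696 to 2.67 in the VTA, and the regions overlapped only through isolated VTA library 3. Within the VTA the summed level was 13.98, 12.9 and 15.7 CPM per kb in the isolated libraries and 9.97, 10.7 and 12.4 CPM per kb in the group-housed ones. These sums and shares are descriptions and were not tested.

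**Figure D2:**
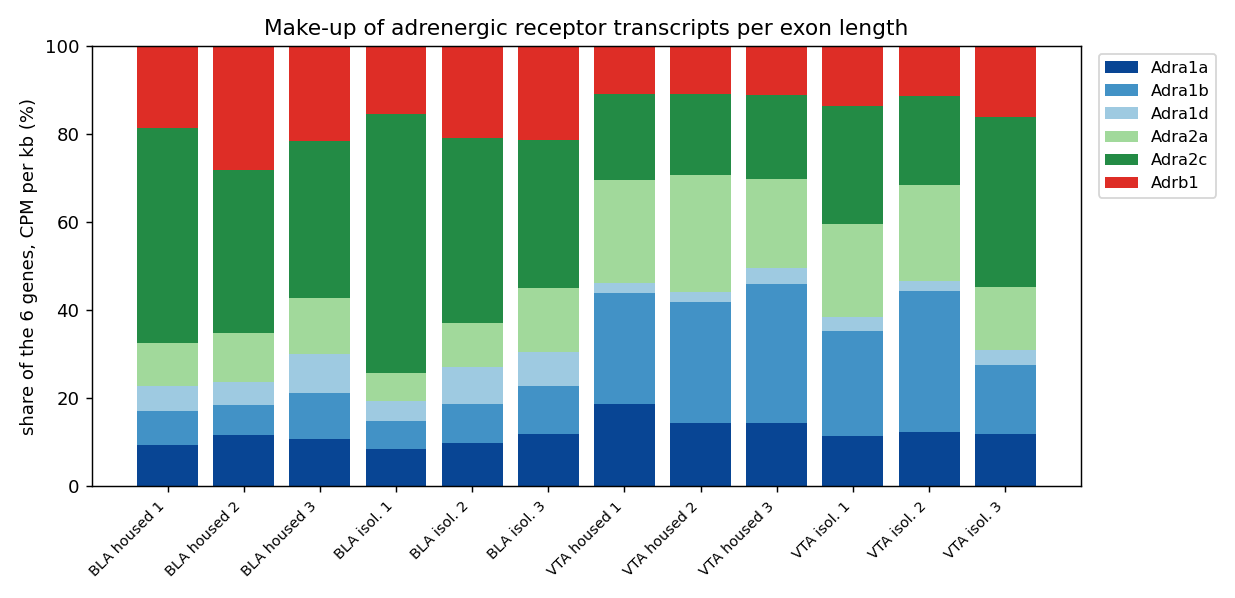
Share of the summed adrenergic receptor level (percent, from CPM per kb of summed exons) taken by each of the 6 genes, as 1 stacked bar per library. Adra2c takes 33.6% to 59.0% in BLA libraries, and Adra1b takes 15.5% to 31.99% in VTA libraries.

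The regions differed in 5 of the 6 genes. Adra1d, Adra2c, Adrb1 and Adra1a were higher in the BLA and Adra1b was lower, while Adra2a did not pass the test. Adra1d had the largest fold, 4.30-fold higher in the BLA (log2 difference 2.10, SE 0.23, edgeR adjusted p = 3.68e-06). Adra2c was 3.53-fold higher (log2 1.82, SE 0.27, adjusted p = 0.000386) and Adrb1 3.17-fold higher (log2 1.66, SE 0.13, adjusted p = 1.14e-07). Adra1a was 1.43-fold higher (log2 0.51, SE 0.08, adjusted p = 5.45e-05). Adra1b was 1.60-fold lower in the BLA (log2 -0.67, SE 0.16, adjusted p = 0.00248). Adra2a differed by -0.05 log2 (SE 0.13, adjusted p = 0.779). In such bulk samples, fewer cells of a type and less RNA per cell cannot be told apart.

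The background is high: 47.7% of the 25009 genes tested passed the same test, 23.7% higher and 24.1% lower in the BLA. The regions did not overlap in 4 of the 6 members, all higher in the BLA, against 27.1% of all genes in either direction and 12.9% in that direction. All 5 calls stood with each single library left out and without isolated VTA libraries 1 and 3, where Adra2c differed by 2.15 log2 and Adrb1 by 1.87. With library size alone as the scaling, the median of all genes moved to -0.44 log2 and calls split into 16.9% higher against 49.6% with TMM. Adra1a was then not called (log2 0.09, adjusted p = 0.668) and Adra2a was called lower (log2 -0.48, adjusted p = 0.0235).

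**Figure D3:**
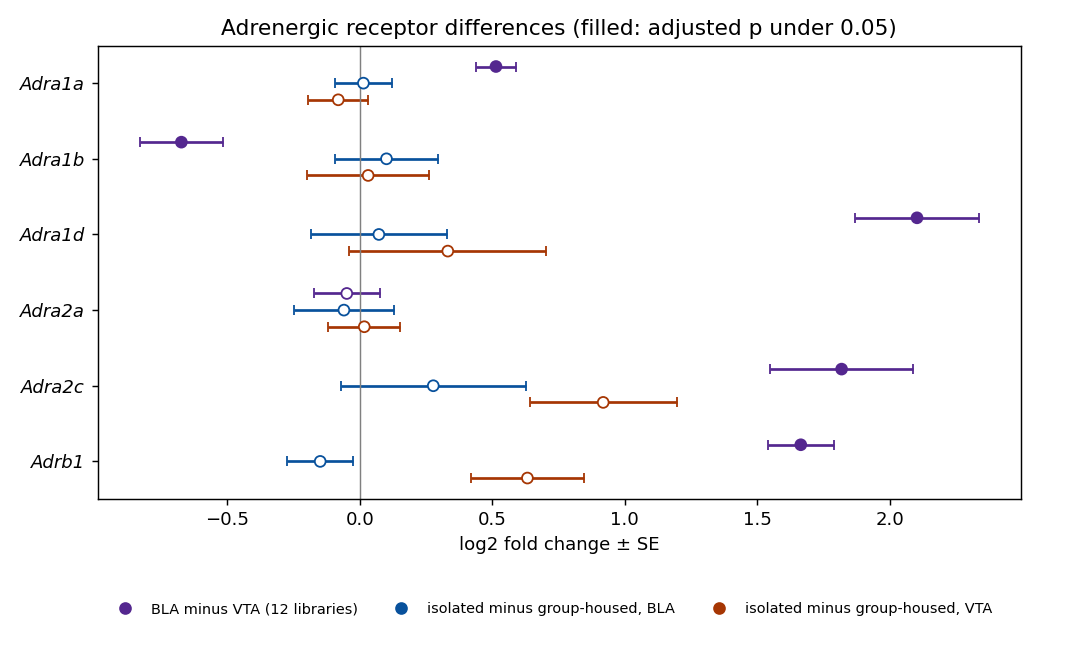
Log2 fold change with its standard error for each adrenergic receptor gene in 3 comparisons, BLA minus VTA and isolated minus group-housed within each region. Filled points passed an adjusted p of 0.05: 5 members did between regions and 0 between housing groups.

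In the BLA of male mice, housing made no difference that passed the test in any of the 6 genes. The log2 changes, isolated relative to group-housed, were 0.01 for Adra1a, 0.10 for Adra1b, 0.07 for Adra1d, -0.06 for Adra2a, 0.28 for Adra2c and -0.15 for Adrb1, with a median of 0.04 against 0.00 over all genes tested. Their standard errors ran from 0.11 for Adra1a to 0.35 for Adra2c, and the groups overlapped in all 6, where 7.11% of all genes tested did not overlap (4.15% higher, 2.96% lower). By edgeR, 0 of 6 passed an adjusted p of 0.05 and 0 of 6 an unadjusted one, and DESeq2 and limma voom also called 0. Over all 22110 genes tested, 0% passed the adjusted threshold and 1.99% the unadjusted one.

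The positive value of Adra2c rested on isolated BLA library 1, without which it was -0.15 log2. That library, at 59.3 CPM, and group-housed BLA library 1, at 42.4 CPM, held the highest levels of Adra2c. They also held the highest sums of the 8 striatal projection neuron markers, 2264 and 1609 CPM, against 657 to 1233 CPM in the other 4 BLA libraries. All 8 of these markers had a higher mean in the isolated group, with sums of 891 to 2264 CPM against 657 to 1609 CPM, and none was at 0. Their part in the level of Adra2c was not tested.

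In the VTA of female mice, none of the 6 genes passed the adjusted threshold either, but Adra2c and Adrb1 had groups that did not overlap. Adra2c averaged 14.2 ± 6.0 CPM in isolated and 7.20 ± 0.79 CPM in group-housed libraries (SD, n = 3 each). It differed 1.89-fold (log2 0.92, SE 0.28) in the fit of the VTA libraries alone, which has scaling factors of its own. Its unadjusted edgeR p was 0.0121 and its adjusted p = 0.236. Adrb1 averaged 6.66 ± 1.79 CPM against 4.11 ± 0.53 CPM, and in the same fit it differed 1.55-fold (log2 0.63, SE 0.21). Its unadjusted edgeR p was 0.0169 and its adjusted p = 0.238. The other members were at -0.08 log2 (Adra1a), 0.03 (Adra1b), 0.33 (Adra1d, SE 0.37) and 0.02 (Adra2a), with overlapping groups.

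Of the 6 members, 2 were at an unadjusted p under 0.05 by edgeR, where 18.3% of the 24082 genes tested were. In 2 members the housing groups did not overlap, both with the isolated libraries higher. Of all genes tested, 29.1% had groups that did not overlap, 17.4% with the isolated libraries higher and 11.6% with them lower. After adjustment, 0 of 6 members passed, and 0.00415% of all genes did. The median over the members was 0.18 log2, against 0.00 over all genes. DESeq2 called Adra2c (log2 0.93, adjusted p = 0.0312), and limma voom called 0 members. Over all 24082 genes tested, DESeq2 called 485 and limma voom 2. Without isolated VTA library 2, edgeR called Adra2c as well (log2 1.16, adjusted p = 0.0373), with Adrb1 at 0.80 log2 and adjusted p = 0.0596. In that fit 1200 of the 24955 genes tested were called.

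Isolated VTA library 3 held the highest level of both genes, 20.8 CPM for Adra2c and 8.54 CPM for Adrb1. Without it the log2 differences were 0.55 for Adra2c and 0.42 for Adrb1. Without isolated VTA libraries 1 and 3 they were 0.29 and 0.25, both with edgeR adjusted p = 0.986. The other members were then at -0.13 (Adra1a), 0.39 (Adra1b), -0.16 (Adra1d) and 0.12 (Adra2a), against -0.08, 0.03, 0.33 and 0.02 with all libraries, and none passed. That fit rests on 1 isolated library, library 2, which is assumed to vary like the others. Of the isolated VTA libraries it held the lowest level of both Adra2c (8.97 CPM) and Adrb1 (4.97 CPM). A fall of both differences was thus built into this choice of libraries.

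Sums of the cortical markers were higher in each isolated VTA library than in each group-housed one, while for striatal and choroid plexus markers isolated library 2 lay within the group-housed range. All 9 cortical and basolateral glutamatergic markers had a higher mean there, with sums of 166, 115 and 497 CPM in isolated libraries 1 to 3 and of 89.3 to 90.4 CPM in group-housed ones, with Emx1 at 0 in some library. Of 8 striatal projection neuron markers, 7 had a higher mean, with sums of 187, 163 and 595 CPM against 147 to 184 CPM, and none was at 0. All 8 choroid plexus markers had a higher mean, with sums of 45.3 to 3434 CPM against 37.1 to 58.6 CPM, and none was at 0. Of 7 astrocyte markers, 6 had a higher mean, with sums of 3116, 3058 and 3480 CPM in isolated libraries 1 to 3 and of 2685 to 2909 CPM in group-housed ones, and none was at 0. In Adra2c and Adrb1, isolated library 3 came first and library 2 last. The cortical, striatal, choroid plexus, astrocyte and microglia sums had the same order. Other orders were found in the sums of dopamine neuron, noradrenergic neuron, thalamic and midbrain relay neuron, myelin, endothelial and interneuron markers. The part of these cells and tissues in the receptor levels was not tested.

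**Figure D4:**
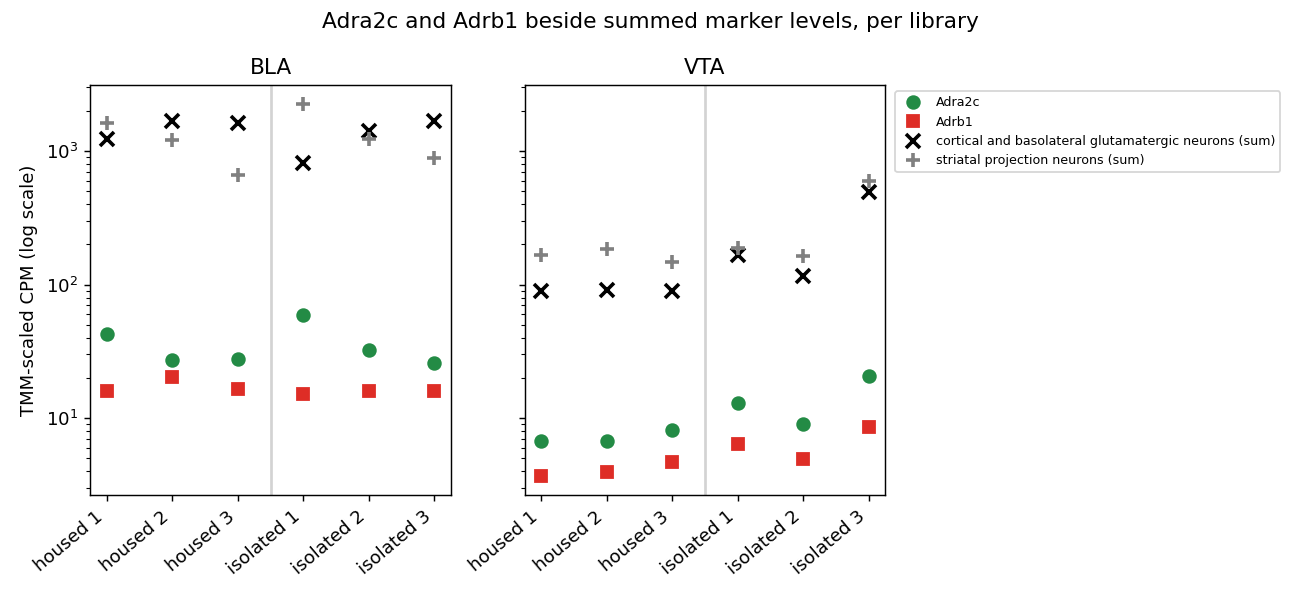
Levels of Adra2c (circles) and Adrb1 (squares) in each library, with the sums of the cortical and basolateral glutamatergic markers (crosses) and of the striatal projection neuron markers (plus signs), all as TMM-scaled CPM on a logarithmic axis, for the BLA on the left and the VTA on the right. Isolated VTA library 3 lies highest among the VTA libraries in both genes and in the cortical sum (497 CPM).

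The isolation responses of the 2 regions were compared directly as the BLA response minus the VTA response over 12 libraries. None of the 6 differences passed the adjusted threshold by edgeR, against 0% of the 25009 genes tested, while 1 member and 14.9% of all genes were at an unadjusted p under 0.05. That member was Adrb1, with a difference of -0.85 log2 (SE 0.25, adjusted p = 0.303). In the fit of 12 libraries its BLA response was -0.16 log2 and its VTA response 0.69. In the fits within a region they were -0.15 and 0.63. Without isolated VTA library 2 the Adrb1 difference was called (log2 -1.02, edgeR adjusted p = 0.0331), in a fit that called 487 of the 25685 genes tested. On all libraries DESeq2 and limma voom called 0 members. Without isolated VTA libraries 1 and 3 the difference was -0.43 log2 for Adrb1 and -0.048 for Adra2c, both with an edgeR adjusted p = 1. On all libraries Adra2c differed by -0.71 log2 (SE 0.53, adjusted p = 0.532) and Adra1d by -0.31 (SE 0.46). Adra1a, Adra1b and Adra2a differed by 0.03, 0.01 and -0.13 log2.

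**Figure D5:**
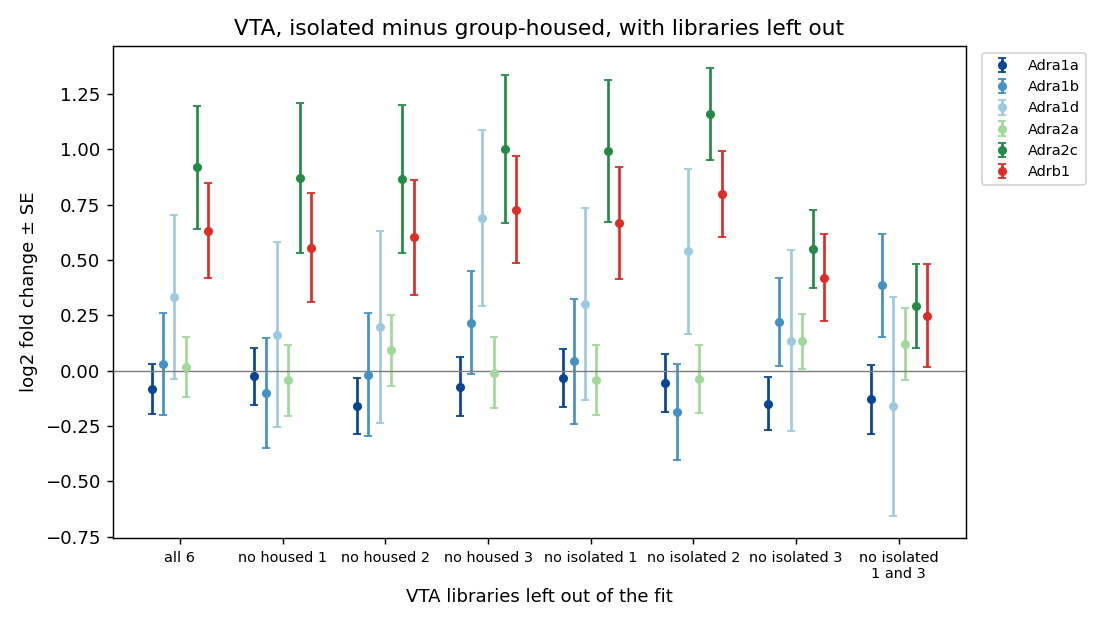
Log2 difference, isolated minus group-housed VTA, for each adrenergic receptor gene with its standard error, with all libraries and with single libraries or isolated libraries 1 and 3 left out, named below the axis. Adra2c runs from 0.55 to 1.16 with 1 library left out and falls to 0.29 without isolated libraries 1 and 3.

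Adra2b, which encodes the alpha-2B receptor and is another gene of the family, was called higher in the BLA. It averaged 1.95 ± 1.48 CPM in group-housed BLA and 0.333 ± 0.047 CPM in group-housed VTA libraries (log2 2.03 over both housing groups, SE 0.38, edgeR adjusted p = 0.000618). In the VTA its isolation difference was 1.32 log2 (SE 0.45, adjusted p = 0.238), on 19 to 88 counts per library, and 0.59 (SE 0.47) without isolated libraries 1 and 3. Adrb3, the beta-3 receptor, differed by -0.38 log2 between regions (SE 0.21, adjusted p = 0.145), and its exons overlap the antisense transcript Gm45470.

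Genes that make, package, take up and break down noradrenaline include several that dopamine neurons also use. Of 9 listed, 8 were tested between regions, and 3 were higher and 5 lower in the BLA, where 23.7% of all genes tested were higher and 24.1% lower, with a median of -0.89 log2 against -0.02 over all genes. The vesicular monoamine transporter Slc18a2 (log2 -4.27), the decarboxylase Ddc (-4.14) and monoamine oxidase Maoa (-0.89) had the smallest p, all lower in the BLA. Dbh, which turns dopamine into noradrenaline and was singled out after its values were seen, had 3 to 53 counts in a BLA library and 0 to 5 in a VTA library. The summed level of noradrenergic neuron markers was 0.182 to 1.04 CPM in the BLA and 0.0357 to 0.177 CPM in the VTA, and the defining markers Slc6a2 and Phox2a were each at 0 in some library of both regions. No gene of the list passed in either housing comparison, and Th had the smallest p in the BLA (log2 0.35, edgeR adjusted p = 1).

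The signalling partners of the receptors were counted against the same background, 23.7% of all genes called higher and 24.1% lower in the BLA. In the Gq and phospholipase C arm, through which alpha-1 receptors act, 8 of 13 genes were higher in the BLA and 4 lower. The phospholipase Plcb4 was lower (log2 -2.13), while the phospholipase Plcb2 (1.31) and the IP3 receptor Itpr1 (2.05) were higher. In the Gi/o arm of alpha-2 receptors, 5 of 9 genes were higher and 3 lower, and the G protein subunits Gnao1 (0.92) and Gnaz (0.47) and the potassium channel Kcnj3 (1.04) led the list by p, all higher in the BLA. In the Gs and cAMP arm of beta receptors, 10 of 17 were higher and 4 lower. The adenylyl cyclase Adcy7 was lower (log2 -1.79), and the adenylyl cyclase Adcy9 (0.84) and the protein kinase A subunit Prkar2b (0.74) were higher. Of 9 genes that switch receptor signalling off, 6 were higher and 0 lower, led by the receptor kinase Grk5 (0.76) and the regulators of G protein signalling Rgs2 (0.61) and Rgs4 (1.20).

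No gene of these 4 lists passed the edgeR test in either housing comparison, in which adjusted p was 1 for all of the genes with the smallest p in the BLA. Those were Itpr2 at -0.11 log2, Gnaz at -0.21, Gnas, the Gs subunit, at -0.20, and Grk3, a receptor kinase, at -0.18. In the VTA the genes with the smallest p were Gna11, a Gq-class subunit (log2 0.20, adjusted p = 0.267), Kcnj3 (0.26, adjusted p = 0.236), Gnal, the Gs-like subunit abundant in striatal neurons (0.44, adjusted p = 0.236), and Grk2 (0.19, adjusted p = 0.252). Medians in the VTA were 0.16 log2 for the Gq list, 0.15 for Gi/o, 0.08 for Gs and cAMP and 0.13 for the genes that switch signalling off. Without isolated VTA libraries 1 and 3, the 4 genes were at 0.08 (Gna11), 0.21 (Kcnj3), 0.19 (Gnal) and 0.18 (Grk2), each with edgeR adjusted p = 0.986. The medians were then 0.015, 0.11, 0.084 and 0.090 log2 in the same order of lists. The median of the noradrenaline list was 0.086 over 7 genes tested, against -0.084 over 6 with all libraries. The gene added was Slc6a2 (log2 1.04, SE 1.80), at 0 to 12 counts in a VTA library, so these medians are over unlike sets of genes.

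The genes most like each member were sought by the root mean square difference of log2 CPM, each gene centred on its own mean, over 12 libraries and 16656 genes. This measure is dominated by the difference between regions and is a description. Adra1a, whose own root mean square deviation was 0.27 log2, lay nearest to Tsc2 (0.07), Wwc2 (0.07) and Zfp319 (0.07). Adra1b, with 0.43, lay nearest to Hhatl (0.16), Plekhg2 (0.16) and Rgs3 (0.17). Adra1d, with 1.09, had Wisp1 (0.27) and 2900079G21Rik (0.27) among its nearest genes, both farther off than those named for the other members. Adra2a, with 0.21, lay nearest to C230012O17Rik (0.11), Hunk (0.11) and Dner (0.12).

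Adra2c, with a deviation of 1.03 log2, lay nearest to Cbr3 (0.19), Oprd1 (0.21), which encodes the delta opioid receptor, and Gm37711 (0.22). Oprd1 ran from 18.03 to 33.3 CPM in the BLA and from 5.95 to 15.1 CPM in the VTA. Adrb1, with 0.89, lay nearest to Jcad (0.12), Ntng2 (0.13), which encodes netrin-G2, and Rbfox3 (0.13), which encodes the neuronal nuclear protein NeuN. Rbfox3 ran from 149 to 205 CPM in the BLA and from 39.0 to 73.1 CPM in the VTA. Among the members, Adrb1 lay nearest to Adra1d (0.37) and Adra2c (0.39), and Adra1b lay 1.38 from Adra2c and 1.41 from Adra1d.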

How the data were processed

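RNA was extracted with Trizol and stranded total-RNA libraries were made from 1 ug after ribosomal depletion, per the labels' protocols. The deposited values are raw read counts per gene. Tools listed without versions in the submitters' processing notes are cutadapt, TopHat2 and HTSeq, and the build is mm10. Annotation and strand setting are missing from them (not given in the sources used here). Per-sample tables were used; the combined table had other values at 2 entries, 0 of them a receptor gene. Of the names, 98.9% matched GENCODE vM21. Each of the 12 pairs of replicates differed by more than sampling noise, with a chi-square of at least 18.9 per degree of freedom.

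The tests were run in edgeR 4.0.16 and R 4.3.3 after filterByExpr (at least 10 counts, total of at least 15) and TMM scaling (quasi-likelihood test, robust, Benjamini-Hochberg over all genes tested, threshold 0.05). Isolation was tested within a region on 6 libraries, and the difference of the responses and the regions (BLA minus VTA, mean of both housing groups) on 12. DESeq2 1.42.0 and limma 3.58.1 were alternatives. Named genes were the members, the 3 genes most like each (prior count 2, mean of at least 1 CPM), and per pathway list the 3 with the smallest p between regions and, where none passed, the 1 with the smallest p per housing comparison. Some genes that this rule selects are not reported here. The members and lists were chosen with earlier results of these data known. The scripts were tested on simulated counts.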

Additional observations from a re-analysis of the deposited data

How the results depend on the processing

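All 5 region calls among the receptor genes stood with each of the 12 libraries left out in turn and in all other alternatives run except library size alone, which lost Adra1a and added Adra2a. Whether the numbers in the titles pair the samples was not settled. Same-numbered libraries deviated together by correlations of 0.172, -0.025 and 0.003 in the BLA and -0.058, -0.027 and -0.020 in the VTA. Between unlike numbers the correlations ran from -0.105 to 0.114 in the BLA and from -0.065 to 0.098 in the VTA. With the replicate block the region calls went from 11938 to 11437 genes, with no member's call changed. The VTA calls went from 1 to 0 and the difference calls from 0 to 1. The block lowered the standard error of Adra2c in the BLA from 0.35 to 0.12, while that of Adra1a went from 0.108 to 0.114. Genes called in the BLA were 6 by DESeq2, 6 by library size alone, 8 with no low-count filter, 1 with the ribosomal-RNA-rich libraries left out, and 0 to 4 with single libraries left out. Genes called in the VTA were 485 by DESeq2, 2 by limma voom, 0 by library size alone, 17 with no filter, 0 without isolated libraries 1 and 3, and 0 to 1200 with single libraries left out, the highest without isolated library 2. Genes called in the difference were 142 by DESeq2, 13 by library size alone, 1 with no filter, and 0 to 487 with single libraries left out. Members called were 1 in the VTA by DESeq2, and 0 to 1 in the VTA and 0 to 1 in the difference with single libraries left out.

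Member values without a call changed sign in some settings, and the cause was not tested. By limma voom, Adra1b was -0.093 log2 in the difference and Adra2c -0.046 in the BLA. By library size alone, which moved the median of all genes to 0.31 in the BLA, -0.11 in the VTA and 0.42 in the difference, Adra1d was 0.10 and Adra2a 0.29 in the difference, Adra2a 0.20 and Adrb1 0.18 in the BLA, and Adra1b -0.066 and Adra2a -0.089 in the VTA. With the ribosomal-RNA-rich libraries left out, so that 1 group-housed BLA library remains and is assumed to vary like the others, Adra1b was -0.32 in the difference, and Adra1a was -0.048, Adra1b -0.30 and Adra1d -0.34 in the BLA. In group-housed libraries only, Adra2a was 0.018 between regions. Without isolated VTA libraries 1 and 3, an alternative that for the regions, the difference and the pathway lists was added after seeing the data, Adra1d was -0.16 in the VTA and 0.21 in the difference, and Adra1b was -0.32 there. With single libraries left out, values that changed sign ran in the BLA from -0.041 to 0.076 (Adra1a), -0.052 to 0.27 (Adra1b), -0.091 to 0.35 (Adra1d), -0.31 to 0.11 (Adra2a) and -0.15 to 0.51 (Adra2c). In the VTA they ran from -0.19 to 0.22 (Adra1b) and -0.0445 to 0.13 (Adra2a), in the difference from -0.018 to 0.12 (Adra1a), -0.18 to 0.22 (Adra1b) and -0.37 to 0.037 (Adra2a), and between regions from -0.17 to 0.036 (Adra2a). Adra1d had 29 to 74 counts per VTA library, and the part of depth in its spread was not tested.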
